A study of Homo sapiens with 12 samples.

Results

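HK-2 cells, derived from human proximal tubule epithelium and immortalised, were compared after 48 h with recombinant S100A8 or with PBS alone. The members were the 6 libraries that the labels put in these groups, 3 with S100A8 and 3 with PBS, out of 12 in the series. The other 6 libraries, 3 with recombinant S100A9 and 3 with recombinant S100A8/S100A9, entered the fit so that all groups shared an estimate of the spread. The labels print the dose of recombinant protein as 5 mg/mL, a unit that could not be checked against another source, and give the PBS cells a matching volume of PBS. Cells of both groups were labelled wild type and were grown in DMEM with 10% fetal bovine serum. Whether serum was present during the 48 h is not given in the sources used here, and neither is whether replicates came from separate cultures, so each p-value reflects the spread among these libraries, which may be technical.

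S100A8 is a small calcium-binding protein that neutrophils and monocytes carry in bulk and release at sites of inflammation, mostly as a complex with its partner S100A9. Outside the cell, both proteins can act on pattern recognition receptors, chiefly TLR4 and RAGE (the product of AGER). In epithelium, signalling through these receptors is known to raise NF-kB targets such as chemokines and acute phase genes. The comparison of S100A8 with PBS asks which genes of tubule cells answer to the single protein, and how large an answer could have been missed.

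Of 13512 genes tested with edgeR's quasi-likelihood test, 1 passed an adjusted p of 0.05 (0.0074%). That gene was C4B, a copy of the gene for complement component C4, and it was lower after S100A8. For most other genes the data set a narrow limit on the change. Among the 9917 well measured genes, those with a mean of at least 10 CPM (counts scaled to library size) over the 6 libraries, 9382 (94.6%) lay within 25% of PBS and 9900 (99.8%) within 1.5-fold. Here within 25% means no more than a rise of 25% or the matching fall of 20%, which is 0.32 either way on the log2 scale. These counts come from an equivalence test, which asks whether the log2 difference is inside the limits on both sides, at an adjusted p of 0.05 (Benjamini-Hochberg, over every gene in the fit). In 1154 genes (8.54%) the 3 S100A8 libraries all lay beyond the 3 PBS libraries on the same side. With 3 libraries per group, some genes separate in this way without any effect. An unadjusted p under 0.05 in edgeR was found for 477 (3.53%), of which 235 were higher (1.74%) and 242 lower (1.79%). With no effect on any gene, a share of about 0.05 would fall under this threshold. Among the 35 lists of pathways and functions, the largest share of members on one side of 0 was in genes of mitosis, of which 62 of 67 had a log2 difference above 0, with a median of 0.08.

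The 6 libraries held between 15882193 and 17593989 counts, so that 0 counts in a library allowed up to 0.171 to 0.189 CPM (3 counts, counting error only). Levels are CPM after TMM scaling, given per library or as mean ± SD over 3 libraries, and they are not comparable between genes, since they are not scaled to length. Where levels of different genes are set side by side, FPKM is used, the authors' deposited value scaled to gene length and library total. HK-2 identity was partial by its markers. PAX8 stood at 117 ± 17.1 FPKM after S100A8 and 115 ± 17.2 FPKM after PBS. It encodes a transcription factor of kidney epithelium. Several transporters and receptors of the mature proximal tubule were near 0, among them LRP2 at 0.0100 and 0.0133 FPKM and SLC34A1 at 0.0433 and 0.0900 FPKM. Others were not. The marker GGT1 stood at 27.07 FPKM after S100A8 and 28.05 FPKM after PBS. The transporter SLC4A4 had 37.98 CPM after S100A8 and 39.63 CPM after PBS. Summed markers of blood cells reached at most 1.38 FPKM after S100A8 and 1.94 FPKM after PBS, and those of endothelium at most 0.240 and 0.360 FPKM. Of the 5 fibroblast markers, DCN was at 0 in all 6 libraries and LUM at 32.6 ± 3.32 FPKM after S100A8 and 33.8 ± 0.895 FPKM after PBS. The summed fibroblast markers spanned 31.7 to 38.1 and 36.1 to 38.3 FPKM, ranges that overlap. Only 3 of the 5 had enough counts to be tested, with log2 differences from -0.37 to -0.05, and their mean on the log2 scale was lower in each S100A8 library than in any PBS library. The part of these markers in the results was not tested.

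How large a change could be ruled on depended on the level of the gene. For each gene the outer bound is the larger fold change, in either direction, at the 2 ends of the 95% interval. Its median was 1.076-fold for the 58 genes with at least 1000 CPM and 1.085-fold for the 2300 genes between 100 and 1000 CPM. It was 1.15-fold for the 7559 genes between 10 and 100 CPM. For the 2864 genes between 1 and 10 CPM it was 1.45-fold, and 1894 of them (66.1%) lay within 1.5-fold by the equivalence test. The 731 genes under 1 CPM had a median bound of 2.37-fold, and 0 of them could be placed within 1.5-fold. Over all 13512 genes tested, 9783 (72.4%) lay within 25% and 11794 (87.3%) within 1.5-fold.

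**Figure D1:**
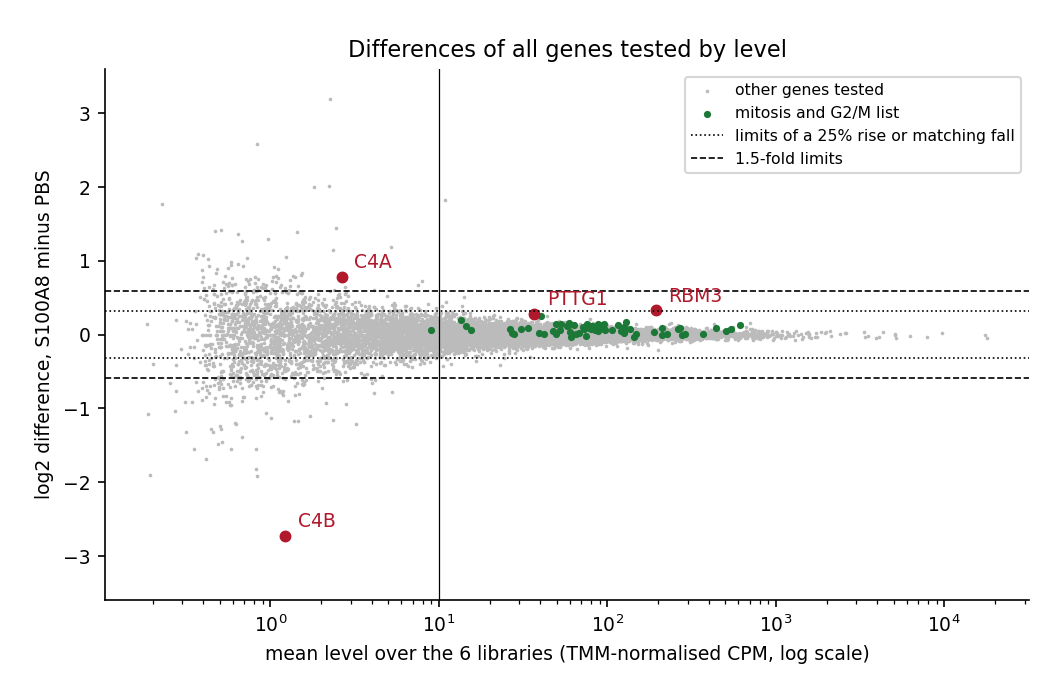
Log2 difference of S100A8 minus PBS against the mean level over the 6 libraries (TMM-normalised CPM, log scale), 1 point per gene tested, with limits of 25% (dotted) and 1.5-fold (dashed) and a vertical line at 10 CPM. The points close in on 0 with rising level, the mitosis genes (green) sit mostly just above 0, C4B stands apart at the bottom, and 9 genes under 10 CPM lie beyond the axis.

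The 5 narrowest intervals belonged to abundant genes of matrix, cytoskeleton and translation. FN1, which encodes fibronectin, had 17540 ± 471 CPM after S100A8 and 17530 ± 370 CPM after PBS, a log2 difference of 0.00 (95% interval -0.06 to 0.07). FLNA (filamin A), ACTG1 (gamma actin), EEF2 (an elongation factor of translation) and TPT1 had outer bounds of 1.05- to 1.07-fold. The usual loading controls were as tightly held, with log2 differences of 0.02 for ACTB (outer bound 1.065-fold) and 0.03 for GAPDH (1.07-fold).

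Of the well measured genes, 17 could not be placed within 1.5-fold. Most of these had a wide spread between libraries of one group. SLC5A3, which encodes a myo-inositol transporter, had 259.4, 125.3 and 169.0 CPM after S100A8 and 265.2, 134.5 and 240.5 CPM after PBS. Its spread within each group was wide and the groups overlapped. Much of this spread followed the replicate number: all 3 S100A8 libraries were below the PBS library of the same number, and the SE of the log2 difference of -0.21 was 0.12 with the replicate block and 0.41 without it. The same held for SLCO4A1 (SE 0.04 with the block and 0.21 without). For NID2 the block also narrowed the SE (0.07 and 0.27), but the direction was the opposite. All 3 of its S100A8 libraries were above the PBS library of the same number, with a log2 difference of 0.16. SLC5A3, SLCO4A1 and NID2 did not pass the adjusted threshold in either fit. RGPD5, a member of a family of near-identical copies, had 1.64, 28.1 and 20.6 CPM after S100A8 and 2.10, 11.3 and 1.246 CPM after PBS. The read-through gene RPL36A-HNRNPH2, which overlaps its component genes, had 28.5, 8.90 and 12.6 CPM after S100A8 and 8.34, 12.98 and 13.7 CPM after PBS. Counts of such copies and overlapping genes depend on how shared reads were assigned and are uncertain. Of the 17, 2 had libraries that did not overlap. ZFR2 had 11, 7.15 and 9.06 CPM after S100A8 and 11.96, 12.04 and 12.5 CPM after PBS. MSH5, a meiotic member of the MutS family of mismatch repair proteins, had 16.2, 17.1 and 13.4 CPM after S100A8 and 10.0, 13.2 and 12.7 CPM after PBS.

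C4A and C4B are neighbouring, nearly identical genes on chromosome 6 that encode the 2 isotypes of complement C4, the protein that is cleaved to start deposition of complement on a surface. Because the only call fell on one copy, their coding sequences were compared (GENCODE release 29 on GRCh38, plus strand). Of 5232 coding bases, 13 differ, so that the sequences are 99.8% identical, and 83.1% of all 150-base windows are the same in both. A window of 90 coding bases around the stretch known to separate the isotypes holds 5 of the 13. It is shown with the differing bases in capitals, because these are among the few places where a read can tell the genes apart, and it spans an intron at chr6:31996046-31996230 for C4A and chr6:32028784-32028968 for C4B.
C4A: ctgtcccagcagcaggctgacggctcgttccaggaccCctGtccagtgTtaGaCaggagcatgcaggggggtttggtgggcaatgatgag
C4B: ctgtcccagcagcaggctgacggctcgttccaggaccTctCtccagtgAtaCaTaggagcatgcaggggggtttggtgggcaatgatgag

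C4B had 0.486, 0.0581 and 0.406 CPM in the S100A8 libraries, which is 8, 1 and 7 counts, and 1.63, 3.13 and 1.64 CPM in the PBS libraries, which is 28, 50 and 29 counts. All 3 S100A8 libraries lay below all 3 PBS libraries. The log2 difference was -2.73 (SE 0.51), with an adjusted p of 0.0329 in edgeR's quasi-likelihood test. C4A had 2.86, 3.37 and 3.83 CPM after S100A8 and 1.63, 1.57 and 2.61 CPM after PBS. Here the S100A8 libraries all lay above the PBS ones, with a log2 difference of 0.79 (SE 0.26) that did not pass the adjusted threshold. The share of C4 counts given to C4B was 14.6%, 1.70% and 9.59% after S100A8 and 50%, 66.7% and 38.7% after PBS. In the S100A9 libraries it was between 28.8% and 60.0%, and in the S100A8/S100A9 libraries between 41.3% and 53.3%.

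Summed over both copies, C4 had 3.67 ± 0.493 CPM after S100A8 and 4.07 ± 0.733 CPM after PBS. The log2 difference of the sum was -0.15 (95% interval -0.53 to 0.24), within 1.5-fold by the equivalence test (adjusted p = 0.0168). With the copies summed, edgeR called 0 genes, 475 having an unadjusted p under 0.05. The C4B call was also lost when S100A8 replicate 1, 2 or 3 or PBS replicate 2 was left out (adjusted p in edgeR of 0.0861, 0.428, 0.161 and 0.479), or when only the 6 libraries were fitted (0.104). How reads shared by the copies were assigned is not given in the sources used here, and its part in the difference was not tested.

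**Figure D2:**
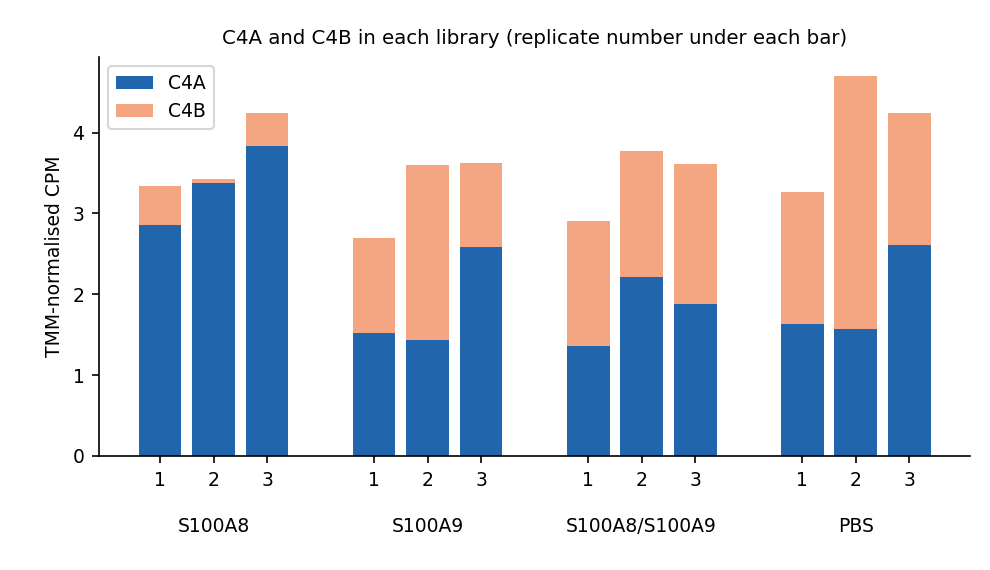
Stacked bars of C4A (blue) and C4B (light orange) in TMM-normalised CPM for each of the 12 libraries, by group and replicate number. The S100A8 bars hold little C4B, while their total height, 3.34 to 4.24 CPM, falls among the PBS totals of 3.27 to 4.70 CPM.

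The genes listed as receptors and adaptors for S100A8 were present at unequal levels. Of 17 tested members, 0 passed in edgeR, with 0 at an unadjusted p under 0.05. TLR4 stood at 0.587 ± 0.146 FPKM after S100A8 and 0.490 ± 0.114 FPKM after PBS, and AGER at 2.09 ± 0.354 and 1.93 ± 0.217 FPKM. BSG, which encodes basigin and was also listed, stood far higher at 270 ± 2.18 FPKM after S100A8 and 267 ± 2.39 FPKM after PBS. Whether BSG receives S100A8 in these cells was not tested. Its log2 difference of 0.02 had an outer bound of 1.06-fold. MYD88, the adaptor between TLR4 and NF-kB, had a log2 difference of 0.04 and an outer bound of 1.19-fold. All 11 well measured members of the list lay within 25%. S100A8 and S100A9 themselves had 0 counts in all 6 libraries.

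Inflammatory genes were read in 2 lists, NF-kB targets and secreted cytokines and chemokines. Of 26 gene IDs of NF-kB targets tested, 8 had a log2 difference above 0 and the median was -0.03, against a median of 0.00 and 50.2% above 0 over all genes tested. All 20 well measured NF-kB targets lay within 25%. NFKBIA, which encodes the inhibitor that NF-kB itself induces, had 39.3 ± 1.82 CPM after S100A8 and 41.0 ± 2.17 CPM after PBS, so that a rise of more than 1.05-fold lay outside its 95% interval. CXCL8, the main neutrophil chemokine, had 33.5 ± 1.42 CPM after S100A8 and 34.0 ± 1.84 CPM after PBS, with an upper limit of 1.16-fold. For C3, the central complement component, the upper limit was 1.13-fold.

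Among the 17 cytokines and chemokines tested, 10 had a log2 difference above 0 and the median was 0.04. Of these 17, 3 had libraries that did not overlap, all higher, against 4.41% of all genes tested. IL6 had 7.72 ± 0.715 CPM after S100A8 and 6.02 ± 0.900 CPM after PBS, a log2 difference of 0.36 (95% interval 0.06 to 0.66). CXCL2, another neutrophil chemokine, had 9.83 ± 1.47 CPM after S100A8 and 7.35 ± 0.304 CPM after PBS, a log2 difference of 0.42 (95% interval 0.04 to 0.79). The other was CXCL16, with a log2 difference of 0.13. None of the 3 passed the adjusted threshold in edgeR. CCL2, a monocyte chemokine, had 0, 1 and 1 counts after S100A8 and 6, 2 and 2 counts after PBS, too few to be tested.

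The partner protein gave a further set of inflammatory genes to compare. In S100A9 against PBS, 19 genes were higher at an adjusted p of 0.05 in edgeR (0.141% of those tested). Since they were chosen for being high after S100A9 and both comparisons share the PBS libraries, the values are set side by side as a description. For all 19, the 95% interval of the S100A8 difference lay below the S100A9 estimate. LCN2, the tubular injury marker that binds bacterial siderophores, had a log2 difference of -0.14 after S100A8 (95% interval -1.14 to 0.85) and of 3.15 after S100A9. CXCL8 had -0.02 after S100A8 and 1.33 after S100A9. The set also holds IL6, with 0.36 after S100A8 and 1.30 after S100A9, and CXCL2, with 0.42 after S100A8 and 1.04 after S100A9, both with S100A8 libraries above all PBS libraries. The more abundant ID of SOD2, the mitochondrial superoxide dismutase, had 0.02 after S100A8 and 0.83 after S100A9. For 17 of the 19, the S100A8 interval ended below a 2-fold rise, the others being CCL20 and SAA1, whose levels were under 1 CPM. By the equivalence test, 13 lay within 1.5-fold of PBS after S100A8 and 10 within 25%. Values for S100A8 were above 0 for 11 and below 0 for 8.

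**Figure D3:**
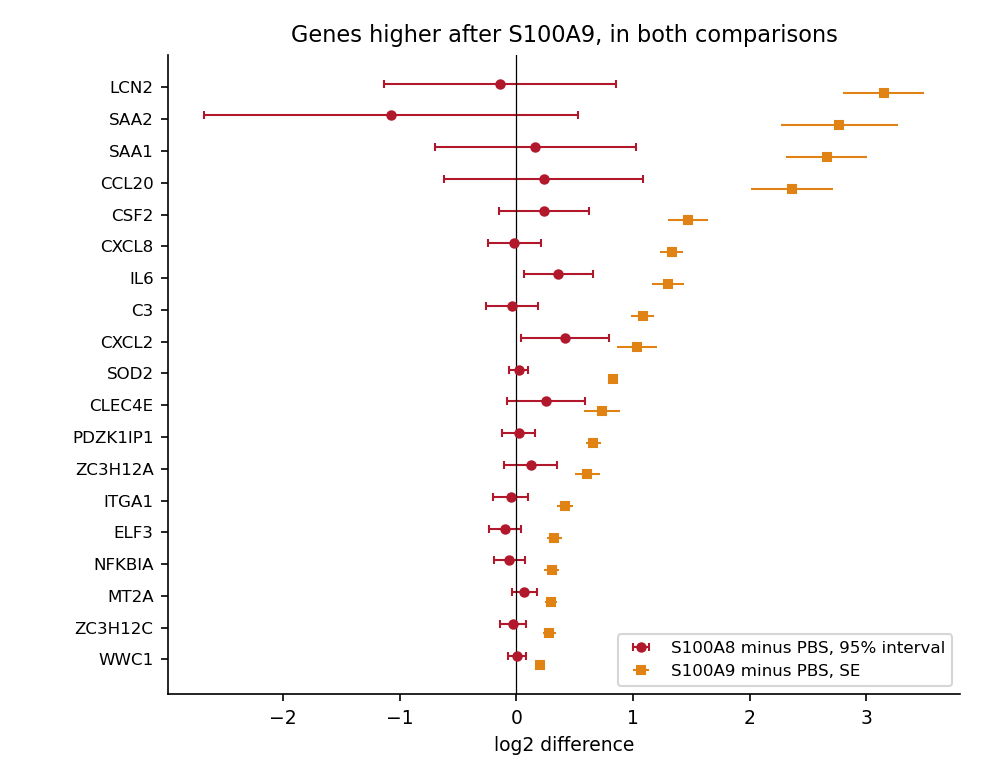
Log2 differences of the 19 genes that were higher after S100A9, in S100A8 minus PBS (red circles with 95% intervals) and in S100A9 minus PBS (orange squares with SE). Every red interval ends left of its orange square, and the widest, for SAA2, belongs to a gene at 0.118 ± 0.0581 CPM after S100A8 and 0.257 ± 0.0728 CPM after PBS.

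Genes of mitosis had the largest share of members on one side of 0 among the 35 lists of pathways and functions. Their products build the spindle, hold and separate the chromatids and drive entry into and exit from mitosis. Transcripts of these genes are made mainly late in the cell cycle, so that their level in a culture depends on how many cells are near division. In bulk RNA, more such cells and more RNA per cell cannot be told apart. All 67 genes of the list were tested. With edgeR, 0 passed an adjusted p of 0.05, in either direction, while 21 had an unadjusted p under 0.05, against 3.53% of all genes tested. Log2 differences were above 0 for 62 and ranged from -0.03 (CDC25B) to 0.29 (PTTG1). The 3 S100A8 libraries all lay above the 3 PBS libraries for 19 of the 67, against 4.41% of all genes tested, and all lay below for 0, against 4.13%. Members of this list can rise and fall together in a culture. Their counts are therefore not independent observations and are given as a description. Averaged over the list, the S100A8 libraries stood at 0.07, 0.09 and 0.07 on the log2 scale and the PBS libraries at 0.01, 0.03 and -0.04, relative to the PBS mean. The groups did not overlap. The S100A9 libraries stood at 0.03, 0.01 and -0.02 and those with S100A8/S100A9 at 0.07, 0.09 and 0.06. These comparisons share the PBS libraries.

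The shift was small in every gene. All 66 well measured members lay within 1.5-fold and 63 within 25% by the equivalence test. The 3 that did not lie within 25% were PTTG1, NUF2 and CDC25C. Leaving out S100A8 replicate 2 gave a median of 0.06, and leaving out PBS replicate 3 one of 0.06 with 52 members above 0. Over all 15 alternative settings the median stayed between 0.06 and 0.10.

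The kinase that drives entry into mitosis and its partners were among the higher members. CDK1 had 133.7, 137.9 and 135.7 CPM after S100A8 and 125.3, 123.5 and 113.5 CPM after PBS, a log2 difference of 0.17 (SE 0.05). The groups did not overlap. Its cyclins CCNB1 and CCNB2 had log2 differences of 0.14 and 0.14, and its small binding subunit CKS2 0.15, each with libraries apart. CCNA2, the cyclin of S and G2 phase, had 0.08 with libraries that overlapped. CDC25B, a phosphatase that activates CDK1, had -0.03. For FOXM1 and MYBL2, transcription factors that induce late cell cycle genes, the differences were 0.01 and 0.01, with outer bounds of 1.08- and 1.06-fold.

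Regulators of exit from mitosis included the member with the largest difference. PTTG1 encodes securin, the inhibitor of the protease that splits the cohesin ring between chromatids. It had 40.5, 38.1 and 43.1 CPM after S100A8 and 31.7, 33.9 and 34.3 CPM after PBS. The lowest S100A8 library was above the highest PBS library, and the log2 difference was 0.29 (SE 0.07). UBE2S, UBE2C and CDC20, which work with the ubiquitin ligase that destroys securin, had 0.13, 0.11 and 0.12, each with libraries apart. ESPL1, the protease itself, had 0.05 with overlapping libraries.

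Kinetochore and spindle genes were mixed in size. NUF2, a subunit of the complex that ties kinetochores to microtubules, had 40.3, 46.5 and 45.3 CPM after S100A8 and 34.7, 39.6 and 36.5 CPM after PBS. Its log2 difference was 0.26 (SE 0.07), whereas its direct partner NDC80 had 0.08 and SPC24 had 0.06. Both of those partners had libraries that overlapped. AURKA, a kinase of the spindle poles, had 0.12 with libraries apart, and AURKB, its counterpart at the centromere, had 0.04 with libraries that overlapped. The motors KIF23 and KIF14, which serve the final division of the cytoplasm, had 0.14 and 0.13 with libraries apart. Genes of chromosome condensation were close to 0 or slightly above, with 0.00 for SMC2 and for SMC4 and 0.08 for NCAPD2. MKI67, the marker of cycling cells, had 614.5, 681.4 and 629.9 CPM after S100A8 and 575.4, 591.0 and 585.0 CPM after PBS, a log2 difference of 0.14 (SE 0.04).

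DNA replication genes, which are made earlier in the cycle, gave a median of 0.00 over 49 members, with 24 above 0. All 49 lay within 25%. Libraries were apart for 3 higher and 2 lower members, near the 4.41% and 4.13% of all genes tested. One of them was RPA2, a subunit of the complex that coats single-stranded DNA, with 70.7 ± 1.17 CPM after S100A8 and 65.3 ± 1.07 CPM after PBS, a log2 difference of 0.12. Brakes on proliferation had 13 of 16 members above 0 and 2 with libraries apart and higher, against 4.41% of all genes tested. Averaged over the list, S100A8 libraries stood 0.09 above PBS libraries on the log2 scale, against 0.08 for mitosis, and the groups did not overlap in either. By median the brakes had the smaller difference, 0.05 against 0.08 for mitosis. Their mean includes IGFBP5, whose difference, given below, was the largest of the list. CDKN2C, an inhibitor of the G1 kinases CDK4 and CDK6, had 13.98, 14.2 and 13.2 CPM after S100A8 and 11.4, 11.5 and 11.2 CPM after PBS, a log2 difference of 0.28 (SE 0.09). IGFBP5 had 1.38 ± 0.338 CPM after S100A8 and 0.722 ± 0.205 CPM after PBS, a log2 difference of 0.91 (SE 0.37). Against the same PBS libraries, CDKN2C had 0.18 after S100A9 and 0.20 after S100A8/S100A9, and IGFBP5 had 0.27 and 0.05. Neither passed the adjusted threshold in edgeR. CDKN1A, the main p53 target among them, had -0.09.

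**Figure D4:**
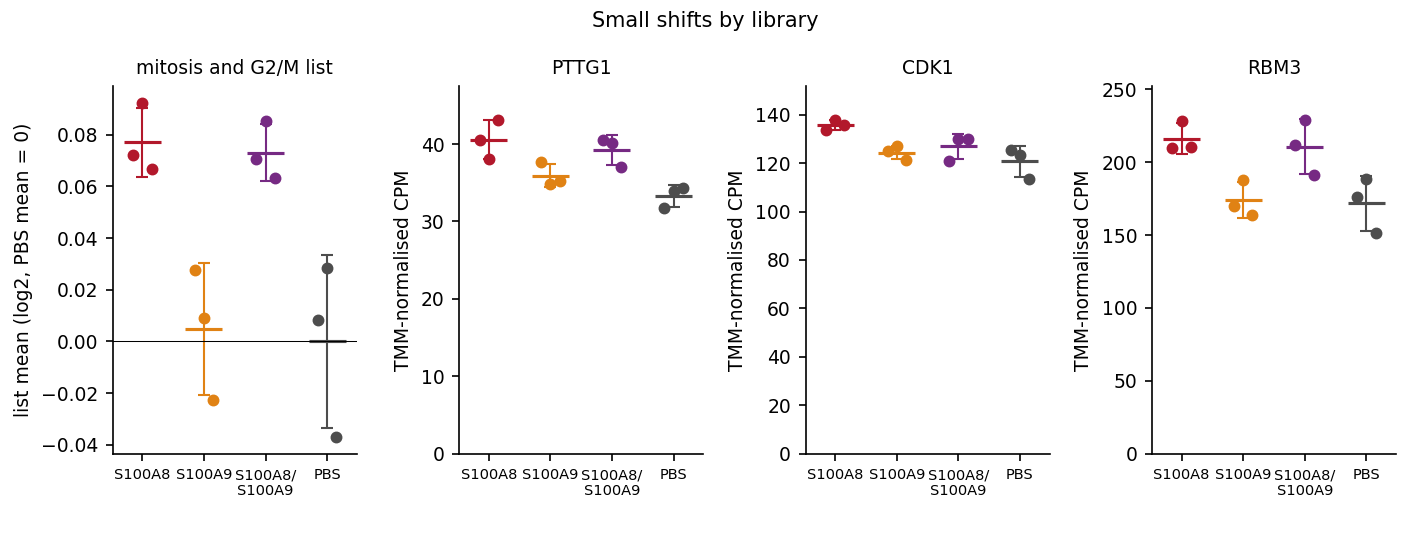
Mean of the mitosis list on the log2 scale relative to the PBS mean, and TMM-normalised CPM of PTTG1, CDK1 and RBM3, 1 point per library with group mean and SD. S100A8 libraries stand above PBS libraries in all 4 panels, and the S100A8/S100A9 libraries overlap those with S100A8 in the list mean, PTTG1 and RBM3.

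Because most mitosis genes lay on the same side of 0, their promoters were searched for 2 short motifs that textbooks tie to late cell cycle genes, the cell cycle genes homology region (TTTGAA) and the CCAAT box (CCAAT), on both strands. The windows ran from 250 bases before to 50 after the start in RefSeq (GRCh38.p14), and 58 of the 67 genes matched. TTTGAA was found for 41 of the 58 genes (70.7%), against 13.7% of 10827 matched genes tested, and CCAAT for 46 (79.3%), against 43.4%. Since the list was chosen by function, its share of motifs does not depend on S100A8. Members with TTTGAA had a median log2 difference of 0.08 and the 17 without it 0.06. Of those with it 37 (90.2%) were above 0, and of those without it 16 (94.1%). Over all matched genes tested, 52.4% of the 1484 with TTTGAA and 50.1% of the 9343 without it were above 0. A match is a description of these letters only. The promoters of the 3 members with the smallest p are shown, each on the plus strand with both motifs in capitals, to let the presence and absence of the motif be compared with the values above. That of CDK1 (chr10:60778228-60778527, the second of 2 listed starts) holds 3 TTTGAA matches, that of NUF2 (chr1:163321704-163322003) holds 1, and that of PTTG1 (chr5:160421605-160421904, the first of 2) holds 0 and has 3 CCAAT matches, 2 of which overlap.
CDK1: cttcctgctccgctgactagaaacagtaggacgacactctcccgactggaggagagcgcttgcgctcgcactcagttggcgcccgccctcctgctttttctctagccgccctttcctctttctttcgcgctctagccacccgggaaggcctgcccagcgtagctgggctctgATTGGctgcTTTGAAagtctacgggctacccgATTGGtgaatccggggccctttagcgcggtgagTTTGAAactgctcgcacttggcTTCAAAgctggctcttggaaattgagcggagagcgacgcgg
NUF2: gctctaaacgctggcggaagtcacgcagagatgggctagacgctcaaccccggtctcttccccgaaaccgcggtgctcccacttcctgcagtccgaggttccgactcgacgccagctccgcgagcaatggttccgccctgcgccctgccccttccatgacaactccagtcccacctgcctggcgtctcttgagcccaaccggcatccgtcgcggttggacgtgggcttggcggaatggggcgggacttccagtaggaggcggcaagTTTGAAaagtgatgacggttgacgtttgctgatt
PTTG1: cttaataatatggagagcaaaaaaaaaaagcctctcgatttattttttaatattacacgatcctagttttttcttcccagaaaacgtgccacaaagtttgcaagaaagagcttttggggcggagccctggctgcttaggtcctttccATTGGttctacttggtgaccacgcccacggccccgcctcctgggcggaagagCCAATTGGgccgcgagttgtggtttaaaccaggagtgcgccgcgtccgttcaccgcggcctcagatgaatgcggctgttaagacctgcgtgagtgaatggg

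RBM3, chosen here after its values were seen, encodes an RNA-binding protein best known for its induction by mild cold. It had 209.6, 228.2 and 210.1 CPM after S100A8 and 176.0, 188.3 and 151.3 CPM after PBS. The groups did not overlap. The log2 difference was 0.33 (SE 0.09) and did not pass in edgeR (adjusted p = 1). With the replicate number of the labels as a block it did, at 0.33 (SE 0.04) and an adjusted p of 2.91e-05. This fit called 2 genes (0.0148% of those tested), C4B and RBM3, against 1 without the block. That S100A8 libraries exceeded the PBS library of the same number in 3 of 3 pairs follows from the lack of overlap and adds nothing to it. RBM3 stood at 170.2, 188.1 and 163.8 CPM after S100A9, inside the PBS range, and at 211.7, 229.1 and 191.1 CPM after S100A8/S100A9. CIRBP, the related cold-induced gene, had 44.3, 50.8 and 50.3 CPM after S100A8 and 39.6, 51.8 and 44.1 CPM after PBS, and the groups overlapped. Its log2 difference of 0.11 was within 25% by the equivalence test.

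Over the 35 lists of pathways and functions, 841 of 842 well measured memberships lay within 1.5-fold and 803 within 25%, shares close to the 99.8% and 94.6% of all well measured genes. The exception at 1.5-fold was NDUFB1, a subunit of respiratory complex I, with 11.9 ± 1.95 CPM after S100A8 and 9.03 ± 1.47 CPM after PBS. Medians ran from -0.06 for proximal tubule identity genes to 0.08 for mitosis. Nuclear genes of oxidative phosphorylation had 54 of 75 members above 0 with a median of 0.05, and cytosolic ribosomal proteins had 67 of 79 above 0 with a median of 0.03. Libraries were apart and higher for 5 of the oxidative phosphorylation genes, among them ATP5PD (log2 difference 0.16), and for 2 of the ribosomal genes, RPS21 (0.15) and RPS9 (0.10). Against 4.41% of all genes tested, neither count stands out. Averaged over either list, the S100A8 and PBS libraries overlapped. Of all 40 lists, markers included, the library means did not overlap for 5. These were higher for mitosis and for the brakes on proliferation, and lower for antioxidant genes, integrins and fibroblast markers. Between the nearest S100A8 and PBS libraries, the list means differed by 0.04 for mitosis, 0.06 for the brakes and -0.06 for fibroblast markers. For antioxidant genes and integrins the gap was only -0.001 and -0.0013 on the log2 scale. Of the integrins, 2 had libraries apart and higher and 0 apart and lower. With 3 libraries per group, some lists separate without any effect, and the share expected was not worked out. The 13 mitochondrially encoded genes had a median of -0.02, with 6 above 0.

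Cytosolic heat shock genes, which encode chaperones that refold damaged proteins, leaned the other way. Of 23 tested, 4 were above 0, the median was -0.05, and list means of the libraries overlapped. HSPA4L had 62.9 ± 1.16 CPM after S100A8 and 68.2 ± 1.14 CPM after PBS, a log2 difference of -0.12 with libraries apart. HSPA1A, the main inducible chaperone, had -0.15 with libraries that overlapped. For the unfolded protein response and the integrated stress response, all 22 and all 24 well measured members lay within 25%. The same held for all 31 proteasome genes, all 34 well measured autophagy and lysosome genes, all 23 well measured p53 targets and all 32 well measured antioxidant genes.

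**Figure D5:**
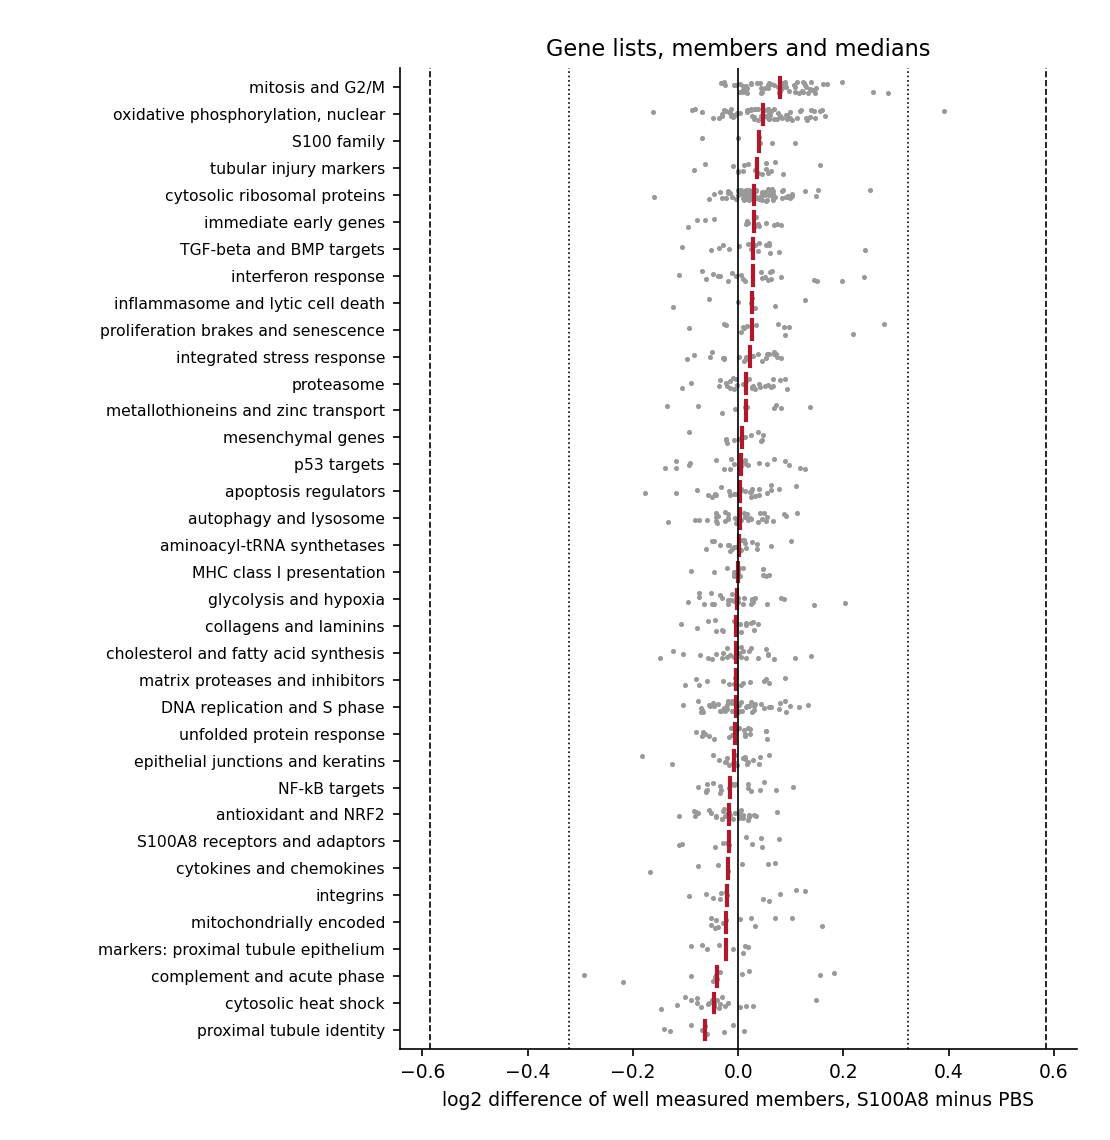
Log2 differences of S100A8 minus PBS for the well measured members (grey points) of the 36 lists with at least 5 such members, sorted by median (red bar), with limits of 25% (dotted) and 1.5-fold (dashed). Mitosis is at the top with a median of 0.08, and almost all points lie inside the dotted limits.

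Other complement genes had values mostly below those of PBS, though several were close to 0, such as C3 (log2 difference -0.04) and CD46 (-0.05). C1S (0.18) and CLU (0.16) were higher, with libraries that overlapped. C1RL, a relative of the complement protease C1R, had 15.3 ± 1.14 CPM after S100A8 and 18.8 ± 0.806 CPM after PBS, a log2 difference of -0.29 (SE 0.09) with libraries apart. CFB, a protease of the alternative pathway, had 12.6 CPM after S100A8 and 14.6 CPM after PBS, a log2 difference of -0.22. Of 18 complement and acute phase genes tested, 6 were above 0 (33.3%), against 50.2% of all genes tested. List means of the libraries overlapped. Libraries were apart and lower for 4 of the 18 genes (C4B, C1RL, CFB and SAA2), against 4.13% of all genes tested. SAA2 was under 1 CPM in both groups, and the difference of C4B was not seen in the sum of the C4 copies. The 8 well measured genes of smallest p that were lower with libraries apart, chosen for that, were ZFR2 (-0.43), C1RL, LRCH2 (-0.26), PJA1 (-0.22), CCDC144A (-0.19), INHBE (-0.18), KLHL7 (-0.18) and TM7SF3 (-0.13). In the same order, against the same PBS libraries, they had 0.04, -0.21, -0.25, -0.01, -0.19, 0.06, -0.09 and 0.01 after S100A9. After S100A8/S100A9 they had -0.03, -0.30, -0.15, -0.12, -0.19, -0.07, -0.10 and -0.08. Chosen in the same way, the 8 higher genes included PTTG1, NUF2, CDK1 and MKI67 of the mitosis list. The other 4 were HMGB3 (0.22), a chromatin protein, ZBTB39 (0.22), DBF4 (0.18), the activator of the kinase that fires replication origins, and PRR11 (0.15). None of these 16 passed the adjusted threshold.

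Genes of injury, tubule identity and fibrosis were at or near their PBS level where well measured. HAVCR1, which encodes the injury marker KIM-1, had 62.2 ± 2.01 CPM after S100A8 and 59.6 ± 6.72 CPM after PBS, with an outer bound of 1.16-fold. VIM, which tubule cells raise when they dedifferentiate, had an outer bound of 1.09-fold. SOX9, a factor of tubule repair, had 2.13 ± 0.285 CPM after S100A8 and 3.29 ± 0.195 CPM after PBS, a log2 difference of -0.63 (SE 0.22) with libraries apart. Of the 23 tubular injury markers tested, 1 had libraries apart and lower, near the 4.13% of all genes tested, and 14 were above 0. EGR1, an immediate early transcription factor, had 3.71, 3.32 and 2.84 CPM after S100A8 and 5.84, 4.20 and 5.10 CPM after PBS, a log2 difference of -0.62 (SE 0.19). Of the 22 immediate early genes tested, 1 had libraries apart and lower, also near 4.13%, and 16 were above 0. COL1A1, the main chain of type I collagen, had 6.91 ± 0.647 CPM after S100A8 and 8.63 ± 0.509 CPM after PBS, a log2 difference of -0.32. Against the same PBS libraries, SOX9, EGR1 and COL1A1 had log2 differences of -0.54, -0.48 and -0.22 after S100A9. After S100A8/S100A9 they had -0.38, -0.57 and -0.35. CDH1 (E-cadherin) was at 3.21 ± 0.580 CPM after S100A8 and 3.75 ± 0.719 CPM after PBS and could not be placed within 1.5-fold. None of these passed the adjusted threshold in edgeR. Of the 31 interferon response genes tested, IFIT1 had 25.01 ± 1.65 CPM after S100A8 and 21.2 ± 1.43 CPM after PBS, a log2 difference of 0.24, and 3 had libraries apart, all higher, against 4.41% of all genes tested.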

How the data were processed

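RNA of HK-2 cells was enriched with oligo(dT) beads and sequenced on an Illumina instrument, per the labels. The authors deposited a count and an FPKM value per gene and library, per the file headers. The authors deposited estimated counts, by their values, since 12.0% of entries were not whole, and these were rounded here. Mouse builds (GRCm38, mm10) stand in the submitters' processing notes, yet the 20286 IDs are human Ensembl IDs. For the build, aligner and counting tool behind the counts, the sources used here give nothing further. Names came from a table of gene names (20228 IDs) and GENCODE (50), and 8 IDs had none. Library totals of the 6 compared ran from 15882193 to 17593989 counts.

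Counts were tested with edgeR 4.0.16 in R 4.3.3 (filterByExpr, minimum count 10, TMM, robust quasi-likelihood fit of all 12 libraries with 1 coefficient per group), two-sided, with Benjamini-Hochberg adjustment over 13512 genes. The equivalence test used 2 one-sided tests from the same fit. List means used log2(CPM + 0.5). The procedure was tested on simulated data. The lists and the genes to follow were chosen with earlier results of these data known. Named were genes past the threshold, the 8 well measured higher and 8 lower genes of smallest p with libraries apart, up to 3 members per list with libraries apart and an unadjusted p under 0.05, a fixed set of receptors, inflammatory and control genes, those with the narrowest and widest intervals, and those higher after S100A9. List members were also named beyond that rule, after their values were seen. Not every gene under the rule is reported here.

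Alternatives were a block for replicate number, DESeq2 1.42.0, its size factors in edgeR, no filter, only the 6 libraries, no robust option, limma 3.58.1 on log2(FPKM + 1), C4A with C4B summed, other minimum levels and leaving out each library. The labels number replicates 1 to 3 in each group without saying that a number marks a shared culture or day. Over 9912 genes the deviations of same-numbered S100A8 and PBS libraries correlated at 0.247, 0.283 and 0.113, against at most 0.0156 between other numbers. Deviations were taken from the mean of each group, which lowers the values between other numbers when those of the same number are positive. The main fit and its equivalence counts did not use the pairing, which entered only as the block. With the block, 650 genes had an unadjusted p under 0.05 in edgeR, against 477 without it. No 2 replicates agreed within sampling noise (chi-square per degree of freedom of 2.36 or more).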

Additional observations from a re-analysis of the deposited data

How the results depend on the processing

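Against 1 gene past the threshold, 2 were called with the replicate block (C4B and RBM3) and 7 with the replicate block on the 6 libraries compared, an alternative chosen after seeing the data. Those 7 included PTTG1 (adjusted p = 0.0273 in edgeR) and 4 read-through or copied genes. In the fit of all 12 libraries the block changed no call other than that of RBM3. In the fit of the 6 libraries it moved the number of calls from 0 to 7. With only the 6 libraries, without the robust option, with limma on log2(FPKM + 1), or with C4A and C4B summed, 0 genes were called, with 441, 492, 580 and 475 at an unadjusted p under 0.05. Leaving out each library in turn gave between 0 and 2 calls, and between 2238 and 2981 genes whose libraries did not overlap, against 1154 with all 6, since fewer libraries are compared. The adjusted p of C4B ran from 7.89e-06 to 1.00 over 14 alternatives and passed in 7. For RBM3 it ran from 1.40e-10 to 1 over 15 and passed in 2, both with the block. The number of well measured genes within 25% stayed between 8795 and 9618 and within 1.5-fold between 9864 and 9909. Counting from 1 CPM instead of 10 gave 9783 and 11794 genes, and from 30 CPM 6611 and 6682. Among the 81 genes followed, 0 that passed the adjusted threshold in the main fit or in an alternative changed sign between them. Changes of sign were not counted for genes that passed in neither, nor for the 40 lists. Depth limits the genes under 10 CPM, where changes of 1.5-fold often could not be placed on either side of the limit.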
